A study of Mus musculus with 12 samples.

Results

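The hypoxia-inducible factor (HIF) pathway was followed through 10 genes in whole hearts of mice that lacked the sodium-bicarbonate cotransporter NBCe1 in cardiac myocytes. The genes were taken by symbol from the table of read counts, and all 10 of the 10 had a row among the 24061 gene identifiers. They comprise the alpha subunits Hif1a, Epas1 and Hif3a, their partner Arnt, the prolyl hydroxylases Egln1, Egln2 and Egln3, the ubiquitin ligase subunit Vhl, and the HIF targets Vegfa and Ankrd37. No measured value entered the choice rule, but the members were chosen with earlier results of these data known. All 10 were abundant enough to be tested.

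RNA came from whole hearts of 12 male mice aged 4 months. The 6 mice labelled wild type (W1 to W6) carried floxed Slc4a4 alleles and no Cre recombinase. The 6 mice labelled NBCe1 knockout (K7 to K12) carried the same floxed alleles and a Cre transgene that the β-myosin promoter drives in cardiac myocytes, where it removes exon 12. Endothelial cells, fibroblasts and other cells of the knockout heart therefore keep an intact gene, and the presence of Cre and the deletion cannot be told apart in this design. Each library was 1 mouse, which the comparison sets against the other genotype to ask what the loss of NBCe1 does to the heart's transcripts.

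In cells with enough oxygen, the EGLN enzymes hydroxylate prolines of the HIF alpha subunits, VHL binds the hydroxylated protein, and the proteasome destroys it. When oxygen is short the alpha subunits persist, pair with ARNT (HIF-1 beta) and switch on genes of glycolysis, vessel growth and oxygen delivery. Much of this control acts on the protein, which transcript counts do not measure. Several targets, among them Egln1 and Egln3, feed back on the pathway, and VEGFA from cardiac myocytes is a main signal for the capillaries of the heart.

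The libraries held 10631869 to 13327519 reads in genes. Levels are given as CPM, counts per 1000000 reads of the library after TMM scaling. Slc4a4 itself lay at 63.6 to 105.7 CPM in wild-type hearts (median 90.1) and at 38.4 to 68.5 CPM in knockout hearts (median 47.6), with 5 of 6 knockout hearts below every wild-type heart. Its log2 fold change was -0.81 (95% interval -1.10 to -0.51, edgeR adjusted p = 0.0891), so the targeted gene missed the threshold of 0.05. The 5 cardiac myocyte markers summed to 39310 to 43720 CPM in wild-type and 38460 to 41850 CPM in knockout hearts, and the 5 endothelial markers to 461.4 to 513.5 and 485.0 to 536.3 CPM, with none of either list at 0. Red cell markers (5 of 5 tested) summed to 4560 to 24990 CPM in wild-type and 3684 to 8947 CPM in knockout hearts, W2 being the highest, and 4 of 5 had an unadjusted p under 0.05 in edgeR. Liver markers (1 of 5 tested) summed to at most 1.52 CPM in wild-type and to 1.69 to 71.9 CPM in knockout hearts, K7 being the highest. The part of blood and liver RNA in the values below was not tested beyond leaving out W2 and K7. In whole-heart RNA, fewer cells of a type and less RNA per cell cannot be told apart.

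None of the 10 genes passed the test between genotypes. By edgeR's quasi-likelihood test with Benjamini-Hochberg adjustment over 13832 genes, 0 of 10 were called, where 0% of all tested genes were called. At an unadjusted p under 0.05 there were again 0 of 10, against 4.06% of all tested genes (2.07% higher and 2% lower in knockout). DESeq2 also called 0 of 10, against 0.0736% of the genes it tested, and limma-voom called 0 of 10. In 0 of 10 did the values of the groups stand fully apart, against 0.253% of all tested genes. The fold change was above 0 for 4 members and below 0 for 6, with a median log2 value of -0.03. Over all tested genes 50.6% lay above 0 and 49.4% below, with a median of 0.00. Egln1 and Epas1, which gave the most reads, had the narrowest intervals. For Egln1 the 95% interval ran from 8.72% lower (-8.72%) to 7.74% higher, and for Epas1 from -11.5% to 5.94%. For Ankrd37, the member with the fewest reads, it ran from -43.9% to 32.6%, so only a large difference would have been detectable.

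**Figure D1:**
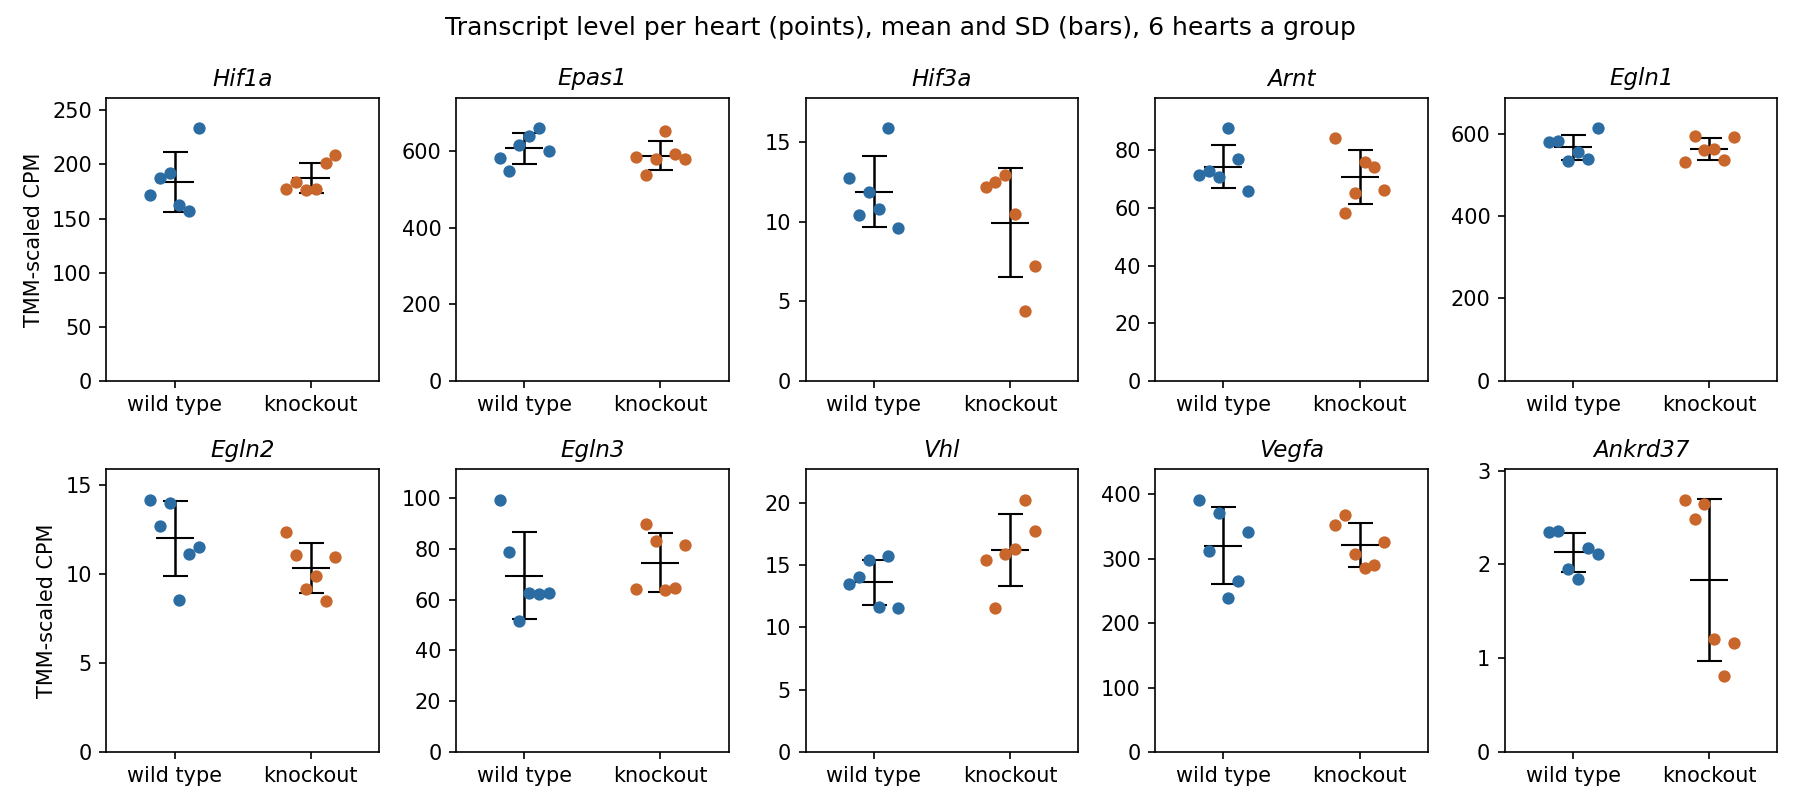
Transcript level of each of the 10 genes in TMM-scaled CPM (y axis, from 0), by genotype; each point is 1 heart, and the bars are the mean and SD of 6 hearts. The groups overlap or interleave for all 10 genes, and the 6 knockout hearts split into 3 above and 3 below the wild-type hearts for Ankrd37.

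**Figure D2:**
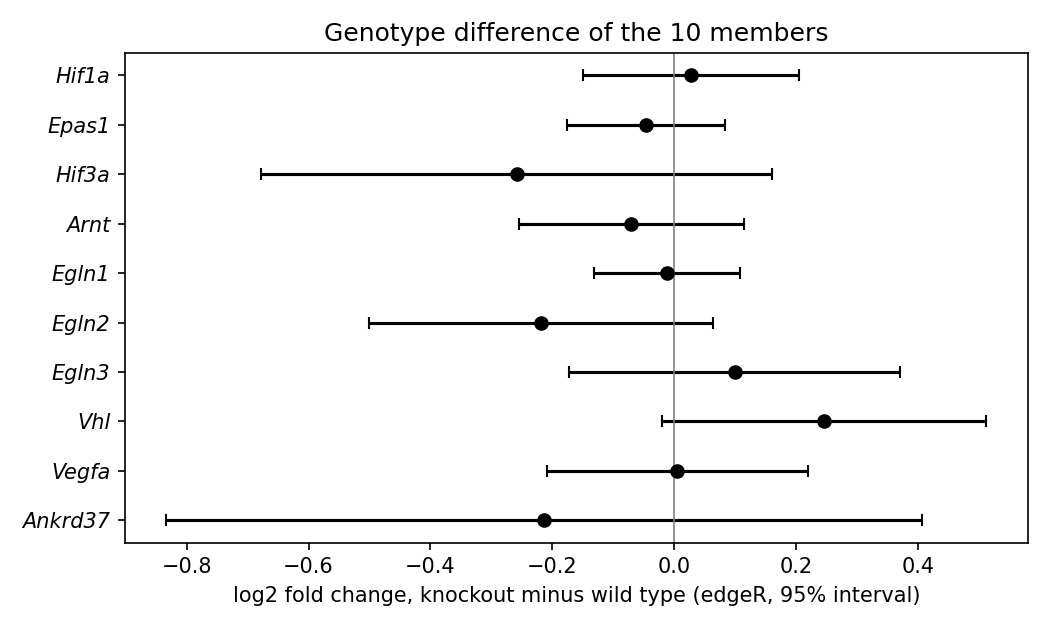
Log2 fold change of each gene, knockout minus wild type (x axis), with its 95% interval from edgeR. Every interval includes 0, from the narrow one of Egln1 (-0.13 to 0.11) to the wide one of Ankrd37 (-0.83 to 0.41).

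Among the alpha subunits, Epas1 (HIF-2 alpha, prominent in endothelium) gave the most reads. It lay at 546.8 to 659.3 CPM in wild-type hearts (median 607.3) and at 537.3 to 652.9 CPM in knockout hearts (median 582.8). The ranges almost coincide, and K8 alone lay below every wild-type heart. On the log2 scale the fold change was -0.05 (SE 0.06, edgeR unadjusted p = 0.4655, adjusted p = 0.999), and it ranged from -0.08 without W2 to -0.02 without W5.

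Hif1a, the broadly expressed HIF-1 alpha, lay at 157.0 to 233.5 CPM in wild-type hearts (median 179.7) and at 176.8 to 208.8 CPM in knockout hearts (median 180.7). All 6 knockout hearts fell inside the wild-type range, whose top was set by W6. Its log2 fold change was 0.03 (SE 0.08, edgeR adjusted p = 0.999), and its sign changed when W4, W5 or K12 was left out. The coefficient of variation was 15.1% in wild type and 7.53% in knockout, against 2.11% and 2.18% from counting alone.

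Hif3a encodes an alpha subunit whose short splice forms restrain HIF activity. It held 49 to 205 reads per heart, at 9.60 to 15.9 CPM in wild type (median 11.3) and 4.39 to 12.9 CPM in knockout (median 11.3). The medians were alike, and the lower knockout mean of 9.95 ± 3.44 CPM against 11.9 ± 2.25 CPM (SD, n = 6 each) came with low values in K11 (4.39 CPM) and K12 (7.21 CPM). The 95% Poisson interval of K11, which covers counting error only, was 3.25 to 5.80 CPM, below the interval of every wild-type heart. Hif3a had a log2 fold change of -0.26 (SE 0.20, edgeR adjusted p = 0.999), and it ranged from -0.35 without K9 to -0.11 without K11.

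Arnt, the shared beta subunit, lay at 65.8 to 87.7 CPM in wild-type hearts (median 72.3) and 58.4 to 84.4 CPM in knockout hearts (median 70.3). The groups overlapped, with K8 and K9 below every wild-type heart and W4 above every knockout heart. For Arnt the log2 fold change was -0.07 (SE 0.09, edgeR adjusted p = 0.999), and it ranged from -0.13 without K7 to -0.02 without K8.

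Of the prolyl hydroxylases, Egln1 (PHD2, the main oxygen sensor of most tissues) lay at 532.8 to 612.9 CPM in wild-type hearts (median 568.2) and 530.6 to 593.1 CPM in knockout hearts (median 561.5). It was among the steadiest of all tested genes. Its edgeR coefficient of biological variation was 8.23%, at percentile 2.45 of the tested genes, and that of Epas1 was 8.76%, at percentile 6.59. Both were also among the most abundant, at percentiles 98.4 (Egln1) and 98.5 (Epas1) of level, and were not compared with genes of like level. The log2 fold change of Egln1 was -0.01 (SE 0.06, edgeR adjusted p = 0.999), and its sign changed when W6, K7 or K11 was left out.

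Egln3 (PHD3), which hypoxia induces, varied far more. It lay at 51.5 to 99.4 CPM in wild-type hearts (median 62.6) and 63.8 to 89.7 CPM in knockout hearts (median 73.1). W4, W5, W6, K7, K10 and K11 sat together at 62.1 to 64.6 CPM, while W1, W2, K8, K9 and K12 lay at 78.6 CPM or above. The log2 fold change was 0.10 (SE 0.13, edgeR adjusted p = 0.999), and it ranged from 0.03 without W3 to 0.23 without W1.

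Egln2 (PHD1) held 95 to 188 reads per heart, at 8.53 to 14.2 CPM in wild type (median 12.1) and 8.51 to 12.3 CPM in knockout (median 10.4). W1, W2 and W3 lay above every knockout heart, while W4 was near the lowest knockout heart. Egln2 had a log2 fold change of -0.22 (95% interval -0.50 to 0.06, edgeR unadjusted p = 0.122, adjusted p = 0.999), and it ranged from -0.30 without W4 (unadjusted p = 0.02632) to -0.17 without W1 or K11.

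Vhl, the subunit that recognises hydroxylated HIF, had the smallest p of the 10. It lay at 11.5 to 15.7 CPM in wild-type hearts (median 13.7) and 11.5 to 20.2 CPM in knockout hearts (median 16.1). K9, K10, K11 and K12 lay above every wild-type heart, while K8 was marginally below the lowest. The log2 fold change was 0.25 (95% interval -0.02 to 0.51, edgeR unadjusted p = 0.06706, adjusted p = 0.999). It ranged from 0.17 without K11 to 0.33 without K8 (unadjusted p = 0.01196, edgeR adjusted p = 0.999).

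Vegfa, the growth factor for vessels, lay at 239.1 to 392.1 CPM in wild-type hearts (median 327.3) and 285.0 to 368.7 CPM in knockout hearts (median 316.3). Every knockout heart fell inside the wild-type range, with 2 wild-type hearts above and 2 below all of them. The log2 fold change was 0.01 (95% interval -0.21 to 0.22, edgeR adjusted p = 0.999), with a sign that depended on single hearts.

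Ankrd37, an ankyrin-repeat gene induced by HIF-1 in human cells, held only 9 to 34 reads per heart. Wild-type hearts lay close together at 1.85 to 2.36 CPM (median 2.14). Knockout hearts fell apart, with K7, K8 and K9 at 2.48 to 2.69 CPM, above every wild-type heart, and K10, K11 and K12 at 0.806 to 1.21 CPM, below every wild-type heart. The Poisson interval of K11 (0.369 to 1.53 CPM) lay below those of K7 (1.86 to 3.76 CPM), K8 (1.65 to 3.59 CPM) and K9 (1.76 to 3.82 CPM). Those of K10 (0.642 to 2.06 CPM) and K12 (0.616 to 1.98 CPM) overlapped the intervals of K7, K8 and K9. The intervals of K7, K8, K9, K10 and K12 each overlapped that of every wild-type heart. The coefficient of variation was 47.1% in knockout, where counting alone gives 24.7%, and 9.63% in wild type, where counting alone gives 19.6%. The difference in spread was not tested. Between genotypes the log2 fold change was -0.21 (SE 0.30, edgeR adjusted p = 0.999), and it ranged from -0.36 without K7 to -0.06 without K11. The far end of Ankrd37 overlaps the neighbouring gene Ufsp2 by 51 bases, and no source used here states whether the counting used strand. The spans of Hif1a and Egln1 also overlap noncoding genes without a count row of their own, Gm15283 over 12831 bases and Gm46060 over 9968 bases, introns included.

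**Figure D3:**
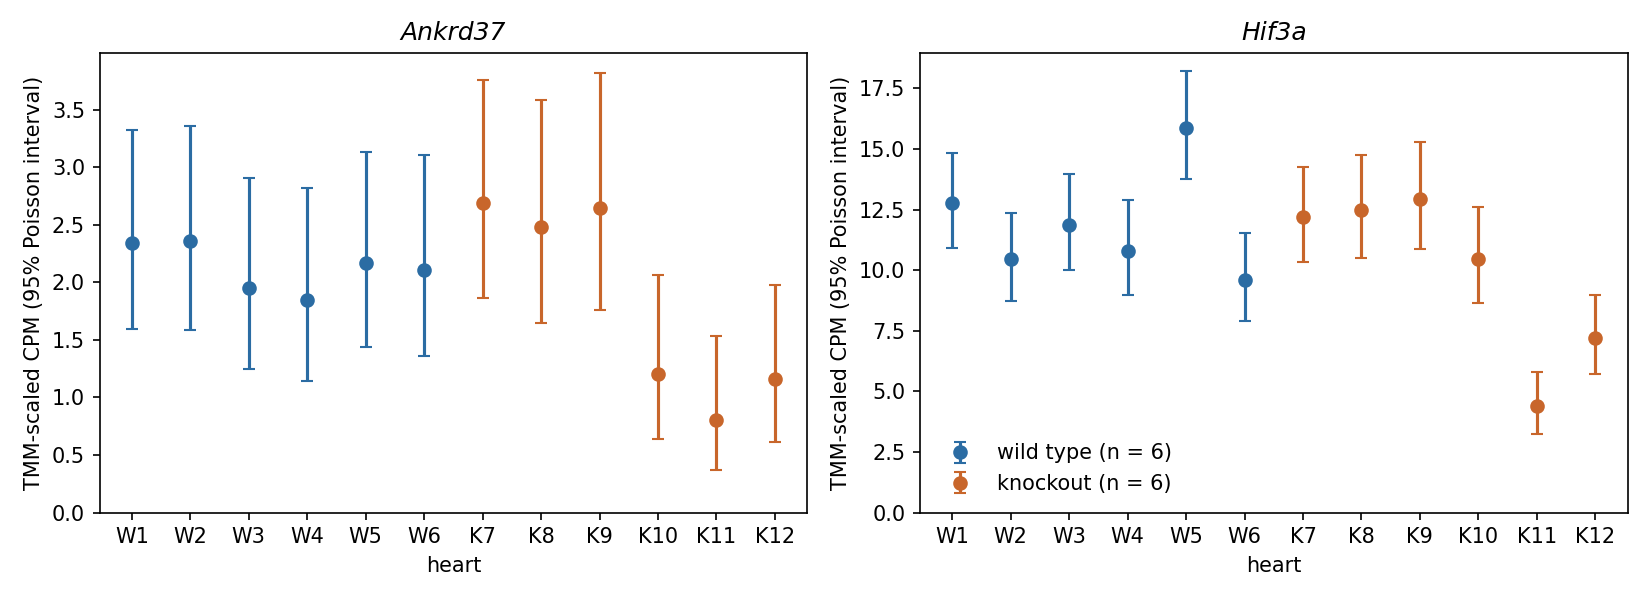
Ankrd37 (left) and Hif3a (right) in each heart, in TMM-scaled CPM (y axis, from 0), with 95% Poisson intervals that cover counting error only. K11 has the lowest value of both genes, 0.806 CPM and 4.39 CPM.

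To look for the core sequence that HIF recognises, the 250 bases before a RefSeq promoter start (GRCm38.p6) are given. They are from 3 members that hypoxia induces and from Hif1a. The core of a hypoxia response element is ACGTG or GCGTG, and capitals mark each match to either, in the gene's own direction or as its reverse complement (CACGT or CACGC). The windows are chr8:45999851-46000100 (minus strand) for Ankrd37, chr12:54203875-54204124 (minus strand) for Egln3, chr17:46032378-46032627 (minus strand) for Vegfa and chr12:73907617-73907866 (plus strand) for Hif1a. Those of Ankrd37 and Hif1a lie inside the RefSeq spans of these genes (chr8:45996908-46000414 and chr12:73901324-73947554), not before them. For Hif1a, no match of the bases after the start to a GENCODE transcript of the gene was found.
Ankrd37: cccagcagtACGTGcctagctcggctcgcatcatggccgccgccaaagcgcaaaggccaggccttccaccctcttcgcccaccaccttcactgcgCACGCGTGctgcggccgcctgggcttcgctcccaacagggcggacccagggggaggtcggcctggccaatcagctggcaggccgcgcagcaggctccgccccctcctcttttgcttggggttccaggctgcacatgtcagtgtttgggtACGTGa
Egln3: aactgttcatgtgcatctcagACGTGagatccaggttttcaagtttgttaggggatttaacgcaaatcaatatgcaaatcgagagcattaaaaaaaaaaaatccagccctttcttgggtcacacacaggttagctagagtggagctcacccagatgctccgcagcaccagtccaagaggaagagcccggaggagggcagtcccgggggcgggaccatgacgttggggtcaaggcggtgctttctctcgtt
Vegfa: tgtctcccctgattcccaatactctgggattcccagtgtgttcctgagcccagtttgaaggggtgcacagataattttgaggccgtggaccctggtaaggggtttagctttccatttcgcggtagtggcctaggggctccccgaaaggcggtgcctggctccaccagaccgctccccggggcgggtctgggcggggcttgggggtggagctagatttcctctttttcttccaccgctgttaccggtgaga
Hif1a: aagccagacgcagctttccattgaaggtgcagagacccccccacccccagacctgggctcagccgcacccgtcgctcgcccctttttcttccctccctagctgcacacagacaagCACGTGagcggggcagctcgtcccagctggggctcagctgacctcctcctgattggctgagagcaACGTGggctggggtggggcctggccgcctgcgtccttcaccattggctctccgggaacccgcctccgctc
The Ankrd37 window held 4 matches, of which CACGC and GCGTG overlap in CACGCGTG, and the last ended at position -2, counted from the start. Egln3 held 1 match, ACGTG at positions -229 to -225. Vegfa held 0 in this window. Hif1a held 3, of which 2 are the overlapping strands of CACGTG, which is also an E-box and was present in 6.02% of all windows.

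The promoter table had 11 windows for 9 of the 10 members and none for Epas1. Either core was present in 9 of the 11 windows, and in 38.6% of 32851 windows of all genes. Egln2 and Vegfa had 2 windows each. Both cores contain CG, and G and C made up 48% to 86% of the bases of the 11 windows. The windows of all genes were not matched for this content, and the difference was not tested. ACGTG, with or without the other core, was present in 6 of 11 and in 16.6% of all windows. GCGTG, counted in the same way, was present in 7 of 11 and 28.2%. The Egln2 window at chr7:27165729-27165978 lies inside the span of that gene (chr7:27158658-27166802) and held 1 match. A further Vegfa window, inside the gene like those of Ankrd37 and Hif1a, held 2 matches, but 218 of its 250 bases lie over annotated Vegfa exon. The bases after its start gave no match to a GENCODE transcript of Vegfa. A match describes letters only and is no evidence that HIF binds there.

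Compared per length of exon, the pathway's transcripts spanned a wide range. Egln1 was highest at 157.1 ± 7.67 CPM per kilobase of GENCODE M21 exon (SD, n = 12), followed by Epas1 at 106.9 ± 6.88 and Vegfa at 74.9 ± 10.8. Hif1a (31.5 ± 3.58) and Egln3 (27.0 ± 5.32) overlapped in range, with Hif1a the higher in 9 of 12 hearts. Arnt came next at 9.06 ± 1.03. Vhl (4.97 ± 0.883) and Egln2 (3.99 ± 0.687) overlapped, with Vhl the higher in 9 of 12 hearts. Hif3a (1.63 ± 0.440) and Ankrd37 (1.29 ± 0.401) overlapped in range, but Hif3a was the higher in 12 of 12 hearts. All other neighbours in this order were separated in range. Within the alpha subunits Epas1 made up 76.7% ± 3.02 of the summed per-length level in wild type and 75.9% ± 1.74 in knockout (SD, n = 6 each), and Hif1a 22.1% and 23.0%. Within the hydroxylases Egln1 made up 84.0% ± 2.64 and 83.2% ± 1.47, Egln3 13.8% and 14.8%, and Egln2 2.28% and 1.96%. The lengths are unions over all annotated transcripts, so a gene expressed as a short form is understated.

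**Figure D4:**
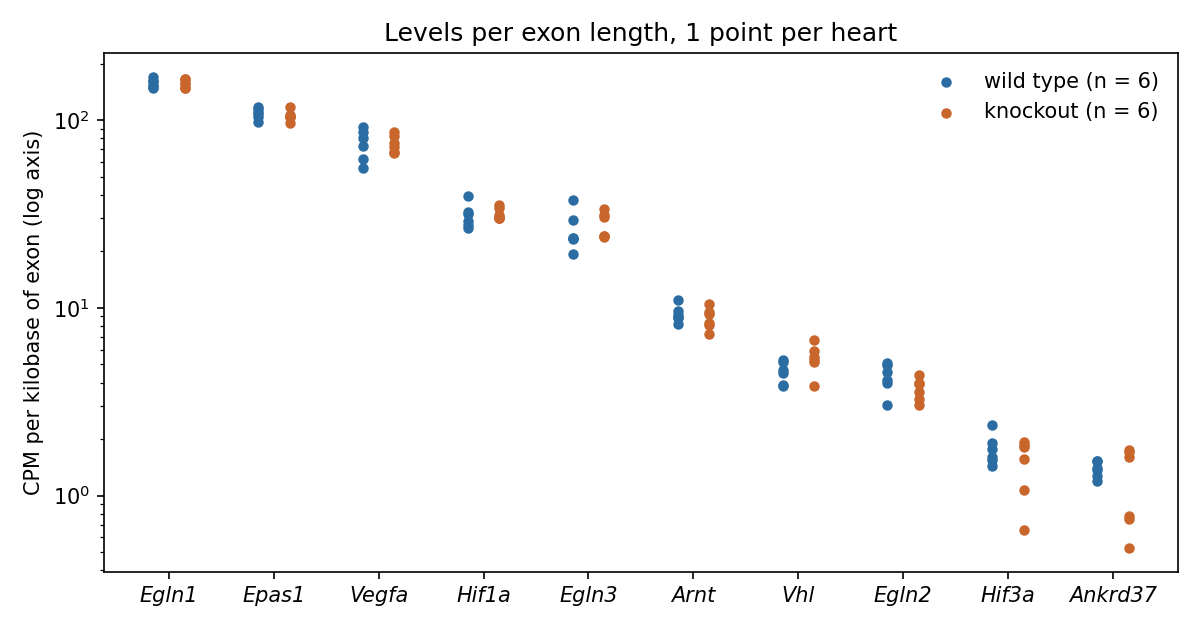
Level per kilobase of exon (y axis, log scale) of the 10 genes, ordered by mean; each point is 1 heart, coloured by genotype. Egln1, Epas1 and Vegfa stand above the other members in every heart of both genotypes.

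Variation among the hearts was not shared by the members as a block. Over 45 pairs of members and 12 hearts, 0 correlations of log2 CPM passed Benjamini-Hochberg adjustment, 8 had an unadjusted permutation p under 0.05, and 23 of 45 were positive. Egln2 and Vegfa had r = 0.758 (permutation p = 0.00501, adjusted p = 0.113) and rho = 0.734 (permutation p = 0.00906, adjusted p = 0.136). Without W4 and K11, the hearts farthest out in Egln2, r was 0.639, and after the group means were subtracted it was 0.868 (permutation adjusted p = 0.0131). Hif3a and Ankrd37 had r = 0.840 (permutation p = 0.00172, adjusted p = 0.0774) and rho = 0.678 (permutation p = 0.018, adjusted p = 0.202). That relation rests on K11 and K12, since r was 0.390 without them, although after the group means were subtracted the adjusted permutation p was 0.0209. Epas1 and Egln3 had r = -0.668 (permutation p = 0.018, adjusted p = 0.262), rho = -0.832 (permutation p = 0.00144, adjusted p = 0.0648) and r = -0.682 without W5 and K10. Hif1a and Hif3a had r = -0.597 (permutation p = 0.0465, adjusted p = 0.262), rho = -0.769 (permutation p = 0.00477, adjusted p = 0.107) and r = -0.687 without W6 and K12.

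Against marker lists of 4 cell types, 0 of 40 correlations passed adjustment and 7 had an unadjusted permutation p under 0.05. Vegfa and the cardiac myocyte markers had r = 0.743 (permutation p = 0.00546, adjusted p = 0.107) and rho = 0.713 (permutation p = 0.0121, adjusted p = 0.121), and r was 0.869 without W1 and W6. Ankrd37 and the fibroblast markers had r = -0.725 (permutation p = 0.005, adjusted p = 0.107), rho = -0.727 (permutation p = 0.00861, adjusted p = 0.121) and r = -0.786 without W6 and K11. Egln2 had r = 0.718 with the cardiac myocyte markers (permutation p = 0.00805, adjusted p = 0.107) and r = -0.701 with the fibroblast markers. The rest of the 7 were Arnt with smooth muscle and pericyte markers (r = -0.687), and Vegfa (-0.620) and Hif3a (-0.587) with fibroblast markers. CPM are scaled shares of a library, so more reads from a cell type can lower the values of the others. Whether this enters these correlations was not tested.

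For each member the genes with the most similar pattern were sought among 10341 genes, by the correlation of log2 CPM over 12 hearts after subtracting group means. These were picked as the highest of many and carry no p. For Vegfa they were Nkx2-5, a transcription factor of cardiac myocytes (within-group r = 0.958, rho over all hearts 0.944), Tnni3, cardiac troponin I (0.948), and Fkbp4, a chaperone partner (0.939). Nkx2-5 ran from 41.5 CPM in W4 to 98.8 CPM in W3, and Vegfa was lowest in W4 as well. Without W1 and W4 the correlation with Nkx2-5 was 0.976. For Hif1a they were Cd34, a surface protein of endothelial and stromal cells (0.959), Rtf1 (0.922) and Trim63, the muscle ubiquitin ligase MuRF1 (0.921). W6 was highest in both Hif1a and Cd34, which reached 287.3 CPM there, and without W6 and K12 the correlation with Cd34 was 0.825.

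**Figure D5:**
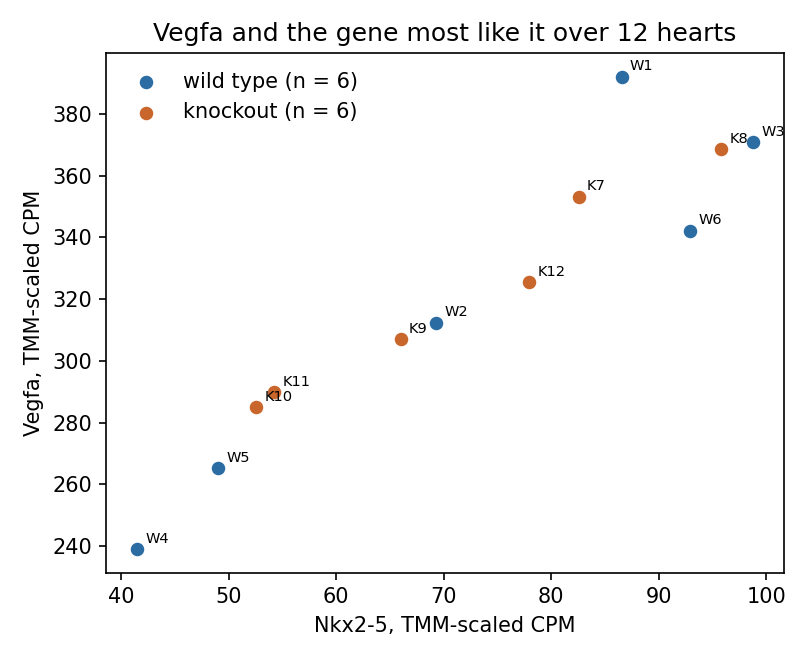
Vegfa (y axis) against Nkx2-5 (x axis) in TMM-scaled CPM, 1 point per heart, coloured by genotype; neither axis starts at 0. Hearts of both genotypes lie along one line, from W4 (41.5 and 239.1 CPM) to W1 and W3, and Nkx2-5 was picked for this likeness.

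For Hif3a the most similar genes were Errfi1, an inhibitor of the EGF receptor (within-group r = 0.920), Rbm14 (0.916) and Zfp946 (0.913). Errfi1 was lowest in K11 (7.08 CPM) and K12 (9.16 CPM). Without these hearts the correlations with Hif3a were 0.554 for Errfi1, 0.567 for Rbm14 and 0.567 for Zfp946. For Ankrd37 they were Mat2a, which makes S-adenosylmethionine (0.948), Arrdc2 (0.942) and Bcl2l1, an inhibitor of apoptosis (0.908). Mat2a reached 528.4 to 542.4 CPM in K7, K8 and K9 and 367.1 to 417.4 CPM in K10, K11 and K12, with all wild-type hearts in between, at 425.6 to 520.7 CPM. It was picked for this likeness, and the labels give no batch that separates these knockout hearts.

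Other parts of the oxygen-sensing machinery gave no call. Of 14 tested genes for partners of the degradation and transcription complexes, 0 passed over all genes. 6 had positive and 8 negative fold changes, and 2 had an unadjusted p under 0.05, both higher in knockout (14.3% of the list against 4.06% of all tested genes). P4htm, a membrane-bound prolyl hydroxylase, lay at 8.24 to 9.53 CPM in wild-type and 9.40 to 12.7 CPM in knockout hearts (log2 fold change 0.30, edgeR unadjusted p = 0.01649, adjusted p = 0.999), with 4 of 6 knockout hearts above every wild-type heart. Rack1, a scaffold that can send HIF-1 alpha to degradation without oxygen sensing, averaged 153.6 ± 8.54 and 169.0 ± 12.6 CPM (SD, n = 6 each; log2 fold change 0.14, edgeR adjusted p = 0.999). Rbx1, the RING subunit of the VHL ligase, averaged 34.0 ± 4.22 and 30.2 ± 2.97 CPM (log2 fold change -0.17, edgeR adjusted p = 0.999). Hif1an, the asparagine hydroxylase FIH, averaged 131.6 and 137.4 CPM, and Cul2, the scaffold of the ligase, 65.8 and 65.5 CPM. Arnt2 was too low to be tested.

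Of 34 tested HIF targets other than the members, 0 passed over all genes, 21 had positive and 13 negative fold changes, and the median log2 value was 0.02. At an unadjusted p under 0.05 there were 1 higher and 2 lower, 8.82% of the list against 4.06% of all tested genes. Slc16a3, the lactate exporter MCT4, averaged 0.725 ± 0.280 and 1.40 ± 0.309 CPM (log2 fold change 0.94, edgeR unadjusted p = 0.01199, adjusted p = 0.999), with 5 of 6 knockout hearts above every wild-type heart. Its level was near the floor, at 0.2355 to 1.085 CPM in wild type and 1.038 to 1.741 CPM in knockout. Both means lay below those of Ankrd37, and counting error was not examined for Slc16a3. Vldlr, a lipoprotein receptor, averaged 888.8 and 809.0 CPM (log2 fold change -0.14), and Hmox1, haem oxygenase, 4.54 and 3.28 CPM (log2 fold change -0.47; edgeR adjusted p = 0.999 for each). Among targets of glucose metabolism the log2 fold changes were 0.13 for Gapdh, 0.07 for Aldoa, 0.05 for Hk2, 0.03 for Ldha, 0.02 for Pdk1 and -0.01 for Pgk1 (edgeR adjusted p = 0.999 for each). They were 0.06 for Pfkfb3, 0.06 for Tpi1, 0.04 for Eno1, 0.02 for Slc2a1, -0.05 for Pkm and -0.06 for Gpi1 (edgeR adjusted p = 0.999 for each). Bnip3, a mitophagy receptor, averaged 285.4 and 285.5 CPM. Epo, the red cell hormone, was at 0 reads in every heart, and Car9, a carbonic anhydrase strongly induced by hypoxia, was too low to be tested.

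Among 12 tested genes of the VEGF and angiopoietin axis, 0 passed over all genes and 0 had an unadjusted p under 0.05, while 9 had positive and 3 negative fold changes, against 50.6% positive over all tested genes. The median log2 value over the 12 genes was 0.07. Vegfb, a VEGF-family ligand abundant in muscle, averaged 260.1 ± 65.5 and 310.8 ± 90.9 CPM (log2 fold change 0.26, edgeR adjusted p = 0.999). Angpt2, an antagonist ligand of the receptor Tek, averaged 4.18 and 5.13 CPM, and Nrp1, a VEGF co-receptor, 369.0 and 394.4 CPM. The receptor Kdr averaged 177.7 and 183.0 CPM.

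A list of 17 glucocorticoid-responsive genes, which holds Errfi1, gave 0 calls over all genes, with 3 positive and 14 negative fold changes, a median of -0.08 and 2 members lower at an unadjusted p under 0.05. These 2 are 11.8% of the list, against 4.06% of all tested genes in either direction and 2% lower, and 49.4% of all tested genes had negative fold changes. The list was chosen with earlier results of these data known. Pik3r1, a regulatory subunit of PI 3-kinase, averaged 334.4 ± 45.3 and 282.8 ± 27.7 CPM (log2 fold change -0.24, edgeR unadjusted p = 0.01077, adjusted p = 0.999). Fkbp5, a steroid-receptor co-chaperone, lay at 21.2 to 38.7 CPM in wild-type and at up to 33.2 CPM in knockout hearts, 3 of which lay under the wild-type range (log2 fold change -0.46, edgeR adjusted p = 0.999), and Mt2, a metallothionein, averaged 6.38 and 4.41 CPM with 5 of 6 knockout hearts below every wild-type heart.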

How the data were processed

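Whole-heart total RNA of 12 mice was sequenced, and the authors deposited unnormalized counts, 1 column per heart. TopHat, CASAVA 1.8, bcl2fastq and DESeq were named with build mm10, per the submitters' processing notes. Which counting program, annotation and strand setting were used, and any batches, is not stated there. Of 24061 identifiers, 23976 matched a RefSeq name (GRCm38.p6, the same build). The library totals are given in the results.

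The test was that of edgeR 4.0.16 in R 4.3.3 (filterByExpr with minimum count 10 and minimum total 15, TMM, quasi-likelihood F test, group as the only term, Benjamini-Hochberg at 0.05 over 13832 genes), with each standard error taken from the F value. Log2 CPM used a prior count of 2. Correlations were tested by 100000 two-sided permutations of the hearts. Exon lengths came from GENCODE M21, and promoters from RefSeq. Alternatives were DESeq2 1.42.0, limma-voom 3.58.1, other scalings and filters, and hearts left out. On simulated counts with 200 of 13832 genes changed, all at a mean of at least 5 CPM, edgeR made 9 false calls and found 90% at a 1.5-fold change but 20% at a 1.25-fold change. Benjamini-Hochberg adjustment is less strict when 200 genes change together, so these shares do not hold for a gene that changes by itself. In the hearts 0 genes were called, and Slc4a4 was missed at a log2 fold change of -0.81 (edgeR adjusted p = 0.0891). Mice were grouped by their labels, and replicates are separate mice per the series design text.

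The rule was to name all 10 members, Slc4a4, for each list any called genes (if none, the 3 of smallest p), and for each member the 3 most similar genes averaging 5 CPM or more, unnamed genes left out. All 3 similar genes are given for Vegfa, Hif1a, Hif3a and Ankrd37, and fewer for the other members. Outside that rule, Hif1an, Cul2, Gapdh, Aldoa, Ldha, Pgk1, Hk2, Pdk1, Bnip3, Kdr and the untested genes were added after their values were seen. So were Pfkfb3, Tpi1, Eno1, Slc2a1, Pkm and Gpi1. The members and lists were chosen with earlier results of these data known.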

Additional observations from a re-analysis of the deposited data

Results flagged for a closer look

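In the 46 sets of 6 hearts examined, 1 had a heart far from the other 5, where chance flags about 1 in 20, or 2.3. Mt2, a metallothionein gene, lay at 9.54 CPM in K9, above every wild-type heart (5.04 to 7.33 CPM), while the other 5 hearts of its genotype lay under the whole wild-type range. None of the 10 members was set apart in this way in either genotype.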

How the results depend on the processing

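None of the 10 members, and no gene of the 4 pathway lists, was called under any alternative run. Over all genes, the count of 0 called became 12 with DESeq2 and 16 with no count filter, and leaving out single hearts gave 0 to 2 (1 without W6, K7, K8 or K9, and 2 without K11 or K12). The fold changes of Epas1, Hif3a, Arnt, Egln2, Egln3, Vhl and Ankrd37 kept their sign throughout. With single hearts left out, the log2 fold change ran from -0.014 to 0.108 for Hif1a, from -0.030 to 0.011 for Egln1 and from -0.070 to 0.072 for Vegfa. Without W2 and K7 together, a choice made after seeing the data, it was 0.0082 for Egln1 and -0.035 for Vegfa. Deviations from group means raised the correlated pairs of members from 0 to 2; the cause was not tested. Ankrd37 has no value under the filter at a mean of 5 CPM. In Ankrd37, at 9 to 34 reads per heart, counting alone gives a coefficient of variation of 19.6% in wild type and 24.7% in knockout, where 47.1% was observed. No paired analysis was possible because the hearts of the groups share no replicate numbers.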

Other observations

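The genes most similar to the remaining members were picked in the same way, as the highest within-group correlations over 12 hearts among 10341 genes, and carry no p. For Epas1 the most similar was Arpc1a, a subunit of the actin-branching complex (0.938). For Arnt it was Gabpa, an ETS transcription factor (0.9), and for Egln1 Nubp2, an assembly factor of cytosolic iron-sulfur proteins (0.866). For Egln2 it was Rnf40, a histone ubiquitin ligase (0.947), followed by the myosin heavy chain gene Myh7b (0.943). For Egln3 it was Reep1 (0.866), and for Vhl the fatty acid elongase gene Elovl6 (0.928). With group means kept, r over the 12 hearts was 0.859 for Arpc1a, 0.868 for Gabpa and 0.864 for Nubp2. It was 0.802 for Rnf40, 0.929 for Myh7b, 0.844 for Reep1 and 0.79 for Elovl6.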
